A study of Homo sapiens with 6 samples.

Results

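Expression in DU145-TFEB and in DU145-vector, measured by RNA-sequencing, was described here for the genes that write, erase and read chromatin marks or move nucleosomes. These chromatin modifiers and remodellers were taken as the protein-coding genes of the deposited table whose symbols begin with the stems KMT, KDM, SETD, NSD, BRD, CHD, HDAC, SIRT, TET, ASXL, EHMT, EZH, PHF or ARID followed by a digit, with the stems SMARC, BAZ or DNMT, or that are CREBBP, EP300 or EP400. The rule used names only and found 88 of the 10542 genes listed. It finds 139 protein-coding genes in the GENCODE 29 annotation, and the genes that are not listed were not analysed here.

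The study used DU145, a human line established from prostate cancer. The 3 DU145-TFEB libraries came from cells that received a lentivirus overexpressing TFEB, the transcription factor of lysosomal and autophagy genes, and the 3 DU145-vector libraries from cells that received a blank lentivirus. The labels do not say whether libraries of a group came from separate cultures, so p-values measure only the spread between these libraries, which may be technical. The listed genes held 13999961 to 16511477 reads per library, and each member was counted with at least 16 reads in every library. TFEB itself had 6325, 6301 and 6036 normalized counts in DU145-TFEB and 127, 124 and 125 in DU145-vector, and reads of the introduced and the endogenous gene cannot be told apart. The epithelial keratins KRT8, KRT18 and KRT19 were listed, with a mean of 16978 normalized counts in DU145-TFEB against 26868 in DU145-vector for KRT8. None of the immune, fibroblast and endothelial markers searched for was among the listed genes, and those markers were not analysed here.

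DNA is wound around histones, and the tails of these proteins carry methyl and acetyl groups that mark genes as active or silent. Methyltransferases and acetyltransferases add the groups, demethylases, deacetylases and sirtuins remove them, and proteins with bromodomains or PHD fingers bind them. Remodellers of the SWI/SNF, ISWI and CHD families use ATP to slide or evict nucleosomes, and many of these genes are mutated in cancers, including prostate cancer.

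TFEB binds the E-box CACGTG, a palindrome that reads the same on both strands. Of 75 members whose promoter was found by symbol in RefSeq (GRCh38.p14, 250 bases before to 50 after the start site), 11 held this motif, or 14.7%. The share was 10.3% over 7619 promoters of listed genes and 7.43% over all 27305 promoters of the table. It was 9 of 48 among members lower in DU145-TFEB and 2 of 27 among those higher. The stretches upstream of the start site of 6 members are shown because they are the sequences in which the factor's motif lies, with the motif in capitals and the distance of its first base from the start site, 4 from lower members (TET2, CHD9, KDM6A and SIRT1) and 2 from the higher members EHMT2 and KDM4B.
TET2 (chr4:105145831-105145874, plus strand, motif 14 bases upstream): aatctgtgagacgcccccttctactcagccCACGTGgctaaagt
CHD9 (chr16:53054847-53054912, plus strand, motif 114 bases upstream): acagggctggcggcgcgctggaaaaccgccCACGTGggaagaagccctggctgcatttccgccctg
KDM6A (chrX:44873063-44873128, plus strand, motif 95 bases upstream): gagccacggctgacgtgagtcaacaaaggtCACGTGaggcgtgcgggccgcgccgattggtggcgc
SIRT1 (chr10:67884582-67884647, plus strand, motif 44 bases upstream): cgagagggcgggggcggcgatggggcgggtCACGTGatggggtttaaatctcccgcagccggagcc
EHMT2 (chr6:31897699-31897758, minus strand, motif 30 bases upstream): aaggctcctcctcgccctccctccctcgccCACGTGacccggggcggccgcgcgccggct
KDM4B (chr19:4968863-4968907, plus strand, motif 241 bases upstream): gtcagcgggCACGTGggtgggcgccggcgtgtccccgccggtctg
SIRT1 held a further copy 123 bases upstream. A match is a description of these letters, and binding of TFEB at these promoters was not measured here.

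The members moved both ways, with larger changes among the lower ones. Compared to DU145-vector, 56 members were lower in DU145-TFEB and 32 were higher by limma at an adjusted p-value below 0.05. Every listed gene had already been called by the authors on the same libraries, so these calls were fixed by the selection, and over all listed genes the shares were 52.4% lower and 47.6% higher. The groups did not overlap in any of the 88 members, as in 99.3% of all listed genes. A log2 fold change compares the group means of log2(normalized count + 1), where a normalized count is a read count divided by the size factor of its library. The members ranged from -2.36 (TET2) to 1.39 (HDAC5) with a median of -0.77, and the median of all listed genes was -0.36.

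With the additional cutoff of an absolute log2 fold change above 1.5, 27 members (30.7%) were lower DEGs, against 16.5% of all listed genes and 15.2% of the listed protein-coding genes. No member (0 of 88) was a higher DEG by limma, nor at an unadjusted p-value below 0.05 past the same fold change, against 2.54% of all listed genes. On the recovered reads edgeR called 22 lower and 0 higher, and DESeq2 15 lower and 1 higher, the deacetylase HDAC5. The lower DEGs had means 2.83-fold to 5.14-fold below DU145-vector, and KDM3A lay just past the cutoff at -1.502 and SIRT1 just outside it at -1.40. The count of lower DEGs fell to 16 with DESeq2 size factors and to 14 after quantile normalization, under which the median of all listed genes was -0.12 and -0.03 and the median of the members -0.53 and -0.44. It fell to 0, and also to 0 at an unadjusted p-value, after a trend with GC content and gene length was removed from each library, a pattern described with the plot of GC content.

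**Figure D1:**
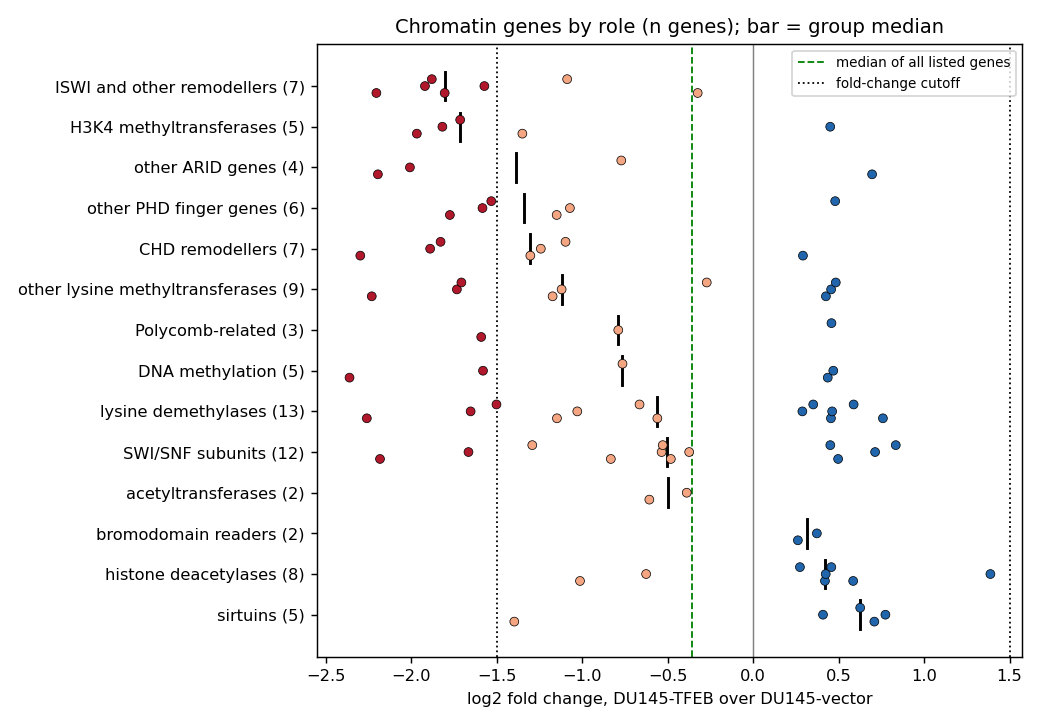
Log2 fold change (DU145-TFEB over DU145-vector, 3 libraries each) of the 88 chromatin genes on the horizontal axis, by role on the vertical axis with the number of genes. Dark red points are the 27 lower DEGs, light red points other lower genes and blue points higher genes, black bars are group medians, the dashed line is the median of all listed genes (-0.36) and dotted lines are the fold-change cutoff. The ISWI remodellers lie lowest and the sirtuins highest, with medians of -1.80 and 0.63 that were -0.86 and -0.42 without the GC and length trend, and 19 of the 32 blue points fall below 0 after its removal. The median of all listed genes is then -0.32.

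Genes named as methyltransferases of histone H3 lysine 4, a mark of active promoters and enhancers, were lower in 4 of 5 listed genes. Of these, 3 were DEGs, and the median of the 5 was -1.71. KMT2C, an enhancer methyltransferase, had 293, 192 and 348 normalized counts in the libraries of DU145-TFEB, and 981, 1102 and 1090 in those of DU145-vector. The groups lay far apart, with a log2 fold change of -1.97 ± 0.19 (SE) and an adjusted p-value of 1.38e-05 (limma). KMT2A, the gene rearranged in leukaemias, had 591, 453 and 658 against 1804, 1920.4 and 1805, a log2 fold change of -1.71 ± 0.13. KMT2E (-1.82) and SETD7 (-1.35) were also lower. KMT2E stands in this list by its name, its own methyltransferase activity being in doubt, and enzyme activity was not measured here. KMT2B, the closest relative of KMT2A, was the only listed gene of the list that was higher, with 2053, 2114 and 1949 against 1440 to 1527 (0.45 ± 0.07), and it turned to -0.32 once the GC and length trend was removed. On that scale all 5 genes were below 0, with a median of -0.98 against -0.32 for all listed genes.

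Among the other lysine methyltransferases 6 of 9 were lower. SETD2 (chr3:47016429-47163967, minus strand, GRCh38), the enzyme that trimethylates H3 lysine 36 behind RNA polymerase II, had 337, 227 and 418 normalized counts in DU145-TFEB and 1464, 1656 and 1373 in DU145-vector. Its log2 fold change of -2.23 ± 0.19 (adjusted p = 8.12e-06, limma) was the lowest of the list, and it kept -1.36 after the trend was removed. NSD1 and NSD3, which add methyl groups at the same residue, were at -1.71 and -1.73, and SETD5 was at -1.17. The H3 lysine 9 methyltransferases EHMT1 and EHMT2, partners in 1 complex, were higher by nearly equal amounts, 0.43 and 0.46, but separated to 0.60 and -0.60 without the trend. KMT5C, which methylates H4 lysine 20, was the highest at 0.48 ± 0.10 and likewise turned to -0.57. Its relative KMT5B was at -1.12, but at -0.15 without the trend, with an adjusted p-value of 0.222 (limma). The smallest change was that of SETD3, an actin histidine methyltransferase despite its name, at -0.27 (0.03 without the trend, adjusted p = 0.662, limma).

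Only 3 of 7 Polycomb-related genes were listed. EZH2, the catalytic subunit of the Polycomb repressive complex 2 and a gene often raised in advanced prostate cancer, had 751, 832 and 725 normalized counts against 1260, 1609 and 1155, a log2 fold change of -0.79 ± 0.12 (adjusted p = 0.000245, limma), which was -0.20 ± 0.10 (adjusted p = 0.0913) after removal of the trend. ASXL2, a cofactor of the H2A deubiquitinase BAP1, was a DEG at -1.59. PHF1, an accessory subunit of the same complex as EZH2, was higher at 0.46 and turned to -0.57 without the trend.

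Lysine demethylases were nearly balanced, with 7 lower and 6 higher of 13 and a median of -0.56. KDM7A, which removes H3 lysine 9 and 27 methylation, had 54.7, 33.7 and 57.1 normalized counts in DU145-TFEB against 239, 219 and 232. This was the lowest demethylase, with a log2 fold change of -2.26 ± 0.21 and a value of -1.19 without the trend. The H3 lysine 27 demethylase KDM6A had 128, 101 and 144 against 342, 428 and 404 (-1.65 ± 0.16), whereas KDM6B, an enzyme of the same activity, had 1238, 1065 and 1172 against 753, 603 and 702 (0.76 ± 0.10). KDM6B was the highest demethylase, and it turned to -0.32 when the trend was removed. KDM3A, an androgen receptor coactivator, was a DEG at -1.502, with 333, 297 and 381 normalized counts against 973, 924 and 955. KDM4C was at -0.66 (then -0.20, adjusted p = 0.246, limma). KDM5A (-1.15) and KDM5B (-1.03), which erase H3 lysine 4 methylation, were lower and KDM5C (0.59) was higher, and after removal of the trend their values of -0.14, -0.14 and 0.08 had adjusted p-values of 0.139, 0.285 and 0.288. KDM1B (-0.56) and PHF2 (0.35) changed sign on that scale, to 0.20 and -0.57, with adjusted p-values of 0.0755 and 2.45e-05 (limma). KDM4A shares 48.5% of its exonic bases with other genes, so its value of 0.45 is uncertain, as strand was not given. KDM5D, on the Y chromosome, is counted among the 6 higher genes.

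Both acetyltransferases that coactivate the androgen receptor and many other factors were lower. EP300 had 1195, 1106 and 1131 normalized counts against 1768, 1861 and 1609, and CREBBP 1228, 1211 and 1289 against 1596, 1821 and 1481. The log2 fold changes of -0.61 ± 0.08 and -0.39 ± 0.09 were smaller than those of most methyltransferases, and neither was a DEG.

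Histone deacetylases were higher in 6 of 8 genes, with a median of 0.42, although HDAC3, HDAC7 and HDAC11 turned to -0.24, -0.22 and -0.62 without the trend. HDAC5 (chr17:44076746-44123702, minus strand), a class IIa enzyme that shuttles between nucleus and cytoplasm, had 3076, 2689 and 2981 normalized counts in DU145-TFEB and 1242, 911 and 1215 in DU145-vector. It was 2.62-fold higher (1.39 ± 0.12, adjusted p = 8.15e-06, limma), the next highest member, SMARCD3, being 1.78-fold higher. HDAC5 kept 0.33 ± 0.11 without the trend. HDAC1, the catalytic subunit of the NuRD, SIN3 and CoREST complexes, had 4240.5, 4470.5 and 4007 against 2782, 2854 and 2836 (0.58 ± 0.07) and kept most of it (0.50 ± 0.05) after the trend was removed. Its partner HDAC2 had 1203, 1207 and 1280.3 against 2511, 2649 and 2299 (-1.01 ± 0.08), which became 0.08 with an adjusted p-value of 0.566. HDAC8, of the same class, was at -0.63 and turned to 0.41, with an adjusted p-value of 0.0514 (limma). HDAC6, the tubulin deacetylase of the cytoplasm, was at 0.46 and at 0.17 with an adjusted p-value of 0.0585.

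The sirtuins, deacetylases that consume NAD+, were higher in 4 of 5 genes, and all 5 were below 0 without the trend. On that scale the median of all listed genes was -0.32, and 4 of the 5 lay below it. SIRT6, which deacetylates H3 lysine 9, had 616, 709 and 561 normalized counts against 398, 333 and 369 (0.77 ± 0.12, then -0.33). The mitochondrial SIRT3 was at 0.71 (then -0.27), SIRT2 at 0.63 (then -0.42) and the nucleolar SIRT7 at 0.41 (then -0.52). SIRT1, which deacetylates p53 and has been reported to deacetylate TFEB, had 374, 389 and 494 against 1071, 1165 and 1055, and its log2 fold change of -1.40 ± 0.12 was -0.62 after the trend was removed.

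For DNA methylation, the 3 TET dioxygenases that oxidize 5-methylcytosine were lower and the methyltransferases DNMT1 and DNMT3A were higher. TET2 (chr4:105145875-105279816, plus strand, GRCh38) showed the largest change of all members, with 106, 43.7 and 133 normalized counts against 421.5, 495.5 and 414, a log2 fold change of -2.36 ± 0.34 and a value of -1.39 ± 0.22 without the trend. The DU145-TFEB libraries of TET2 spread widely, yet the highest of them was far below the lowest DU145-vector library. TET3 (-0.76) changed less, and TET1 (-1.58) had as few as 16 reads in a library and an adjusted p-value of 0.112 without the trend. DNMT1, which copies methylation after replication, had 7043, 7653 and 7118 against 5343, 5141 and 5272 (0.47 ± 0.06). DNMT3A, which sets new methylation, was at 0.44 ± 0.08, and both were still above 0 when the trend was removed, at 0.15 and 0.60. BRD3, a bromodomain gene whose protein binds acetylated histones, was at 0.37 and turned to -0.19 without the trend.

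**Figure D2:**
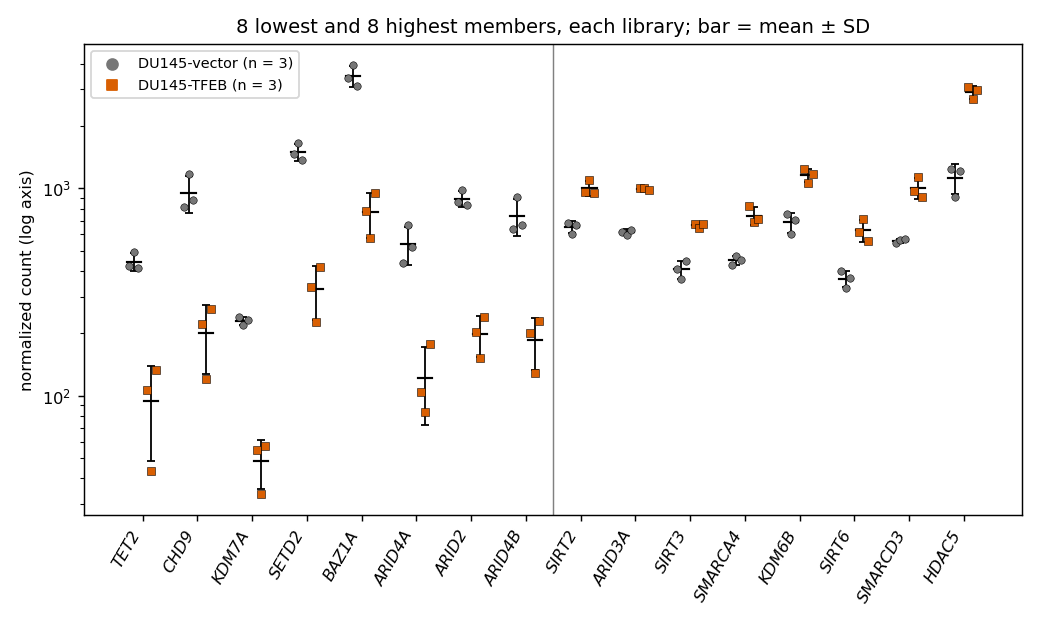
Normalized counts (vertical, log axis) in each library of the 8 members with the lowest and the 8 with the highest log2 fold change that averaged 100 or more normalized counts. Grey circles are DU145-vector, orange squares DU145-TFEB, and bars give the mean and SD (n = 3). For the 8 lower genes the DU145-TFEB libraries spread more widely than those of the 8 higher genes, and in all 16 the groups do not overlap.

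SWI/SNF subunits were lower in 8 of 12 genes and higher in 4, and within the complex the change differed between the exchangeable subunits. Of the ATPases, SMARCA2 had 525, 511 and 580.4 normalized counts against 1348, 1372 and 1242 (-1.29 ± 0.09), and SMARCA4 822, 686 and 712 against 425, 474 and 451 (0.71 ± 0.10). Without the trend the former was at -0.32 and the latter at 0.22, with an adjusted p-value of 0.0568. ARID2, the subunit that defines the PBAF form, had 204, 152 and 239.9 against 865, 979 and 833 (-2.18 ± 0.16, then -1.09). ARID1A and ARID1B, which define the BAF form, were at -0.37 (then -0.56) and -0.54 (then -0.33). The other PBAF subunits PHF10 (-0.83) and BRD7 (-0.53) were at 0.13 and 0.24 without the trend. Their adjusted p-values on that scale were 0.263 and 0.00514 (limma), and BRD7 shares 42.4% of its exonic bases with other genes. SMARCD2 (0.50, then -0.50) and SMARCD3 (0.83, then 0.07) were higher, as was the core subunit SMARCB1 at 0.45 (then 0.09). The scaffold subunit SMARCC1 was at -0.48 (then -0.21). SMARCE1, a DEG at -1.67, had few reads, with 43.1, 41.9 and 53 normalized counts against 126, 177 and 143.

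The ISWI ATPases, their BAZ partners and other remodellers were lower in 7 of 7 genes, 5 of them DEGs, with a median of -1.80. This was the lowest median of the role lists, but without the trend that of the H3 lysine 4 methyltransferases was lower (-0.98 against -0.86), and after quantile normalization both were at -1.45. BAZ1A (chr14:34752731-34875647, minus strand), the large subunit of the ACF complex, had 779, 574 and 950.1 normalized counts against 3422, 3918 and 3110. It was 4.61-fold lower (-2.20 ± 0.17, adjusted p = 4.92e-06, limma) and kept -1.28 without the trend. Its ATPase SMARCA5 was at -1.80, the other ISWI ATPase SMARCA1 at -1.57 and SMARCAD1, which restores silent chromatin after replication, at -1.88. BAZ1B, the Williams syndrome transcription factor, was at -1.09 and was nearly the same, -1.03, after removal of the trend. EP400, the ATPase of the TIP60 complex, changed least at -0.32. All 7 genes were below 0 on the scale without the trend as well, and 6 of them were below the median of all listed genes (-0.32).

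CHD remodellers were lower in 6 of 7 genes, with a median of -1.30. CHD9 (chr16:53055033-53329150, plus strand) had 221, 120.1 and 262 normalized counts against 813, 1172 and 879 (-2.30 ± 0.26), and -1.21 without the trend. CHD1, which is deleted in a subset of prostate cancers, had 342, 262 and 553 against 1206, 1672 and 1260 (-1.89 ± 0.24, then -0.78). CHD6 was the remaining DEG of the list at -1.83. CHD7, mutated in CHARGE syndrome, and CHD8, mutated in autism, were at -1.24 and -1.10. CHD3, an ATPase of NuRD, was higher at 0.29 but -0.09 without the trend, with an adjusted p-value of 0.200.

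Of the remaining PHD finger genes 5 of 6 were lower, from PHF3 (-1.77), a binder of RNA polymerase II, to PHF20 (-1.07), a reader of methylated lysine. PHF20L1 (-1.58) and PHF6 (-1.53), a gene mutated in T-cell leukaemia, were DEGs, and PHF14 was at -1.15 but at -0.21 without the trend, with an adjusted p-value of 0.106. PHF21B was higher at 0.48 and turned to -0.55. Among the other ARID genes ARID4A and ARID4B, both subunits of the SIN3 deacetylase complex, were the lowest. ARID4A had 104, 83.7 and 178 normalized counts against 439, 664 and 521, and ARID4B 199.9, 128 and 229 against 638, 913 and 666. The log2 fold changes were -2.20 ± 0.26 and -2.01 ± 0.22. ARID5B was at -0.77 and at -0.09 without the trend. ARID3A, an E2F partner, was higher at 0.70 ± 0.08, and at -0.32 without the trend.

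Levels between genes were compared as normalized counts per kilobase of the deposited gene length. In DU145-vector BAZ1B stood first with 799 ± 62.5 per kilobase (SD, n = 3), followed by HDAC1 with 713 ± 9.46, SMARCD2 with 670 ± 58.3 and DNMT1 with 536 ± 10.5. The libraries of HDAC1 and SMARCD2 overlapped, whereas those of BAZ1B were all above HDAC1 and those of DNMT1 all below SMARCD2. In DU145-TFEB the order began with HDAC1 at 1070 ± 58.5, SMARCD2 at 946 ± 77.8 and DNMT1 at 742 ± 34.0, and BAZ1B was number 7 at 376 ± 26.3. SMARCA5 went from number 5 to number 25 and BAZ1A from number 6 to number 38. At the lower end in both groups were HDAC8, SMARCE1, BAZ2B and TET1, each below 10 per kilobase. The lengths used were 22986 bases for HDAC8, 18680 for SMARCE1, 20370 for BAZ2B and 9288 for TET1.

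Many chromatin genes belong to families, and relatives were compared here as paralog pairs. The fixed pairs did not always join the closest relatives, as with SIRT1 and SIRT6. KDM5A (-1.15) was lower like KDM5B, and KDM5D (0.29) was higher like KDM5C, but neither of these combinations was a fixed pair. Of 16 pairs with both genes listed, 6 moved in opposite directions. These were KMT2A and KMT2B, KDM6A and KDM6B, KDM5B and KDM5C, HDAC2 and HDAC1, SIRT1 and SIRT6, and SMARCA2 and SMARCA4. Without the GC and length trend 4 of these 6 were no longer opposite, and only KDM5B and KDM5C, with adjusted p-values of 0.285 and 0.288 (limma), and SMARCA2 and SMARCA4 were on different sides of 0. On that scale the median of all listed genes was -0.32. KMT2B, KDM6B and SMARCA2 were at -0.32 and SIRT6 at -0.33, so their side of 0 depends on this shift of the median. The log2 ratio of normalized counts, not scaled by length, of KDM6A to KDM6B was -0.81 ± 0.32 (SD, n = 3) in DU145-vector and -3.22 ± 0.19 in DU145-TFEB, a difference of -2.41 that was -0.68 without the trend. For SMARCA2 to SMARCA4 the ratio went from 1.55 ± 0.10 to -0.45 ± 0.18, a difference of -2.01 (-0.53 without the trend), and per kilobase SMARCA2 had 71.0 against 28.5 for SMARCA4 in DU145-vector but 28.98 against 46.9 in DU145-TFEB. The ratio of HDAC1 to HDAC2 was 0.19 ± 0.10 in DU145-vector and 1.78 ± 0.13 in DU145-TFEB, and its difference of 1.598 was 0.41 without the trend, where the groups overlapped. In 11 of the 16 pairs the ratios of the groups did not overlap, which gives 0.1, the smallest p that the exact two-sided permutation test allows with 3 libraries against 3, and 0.145 after adjustment over 16 pairs, so the design cannot reach 0.05. Without the trend 8 pairs were at this smallest p. EHMT1 and EHMT2, KDM4A and KDM4B, ARID1A and ARID1B, CHD7 and CHD8, and ARID4A and ARID4B were the pairs whose ratios overlapped.

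**Figure D3:**
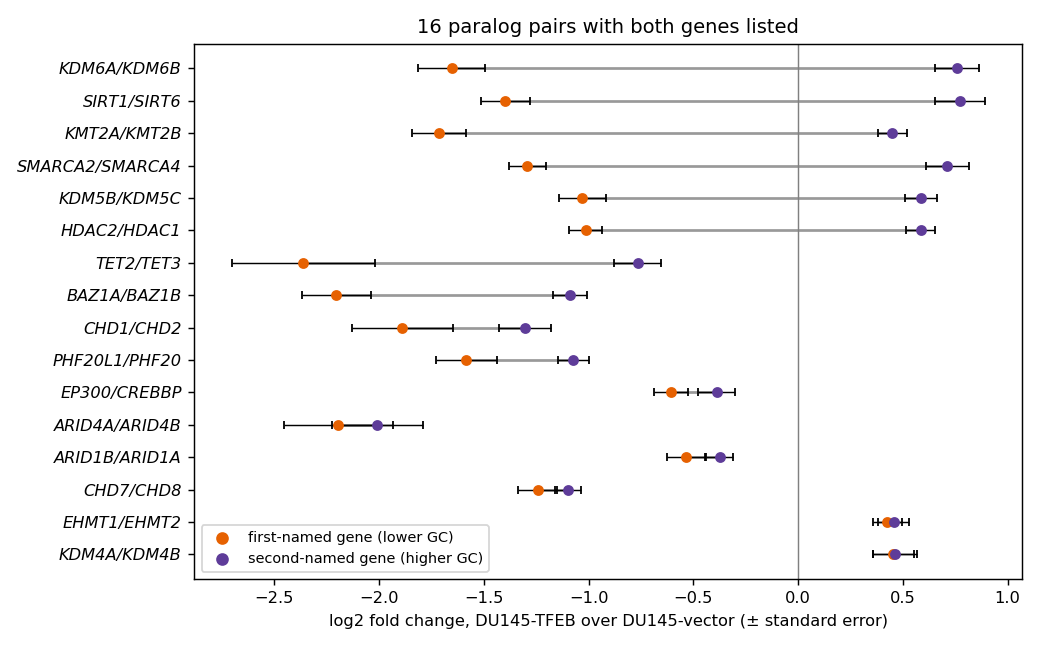
Log2 fold change with its standard error (horizontal) of both genes of the 16 paralog pairs (vertical), the gene of lower GC content in orange and named first, the other in purple. In all 16 pairs the orange point lies to the left, and 6 pairs lie on both sides of 0. Without the GC and length trend the same order held in 11 pairs, and 4 of the 6 pairs no longer lay on both sides of 0. The median of all listed genes was then -0.32.

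The changes followed base composition. In 16 of 16 pairs the gene whose longest transcript had the lower GC content had moved down more. Of 51 members below 50% GC, 50 were lower in DU145-TFEB, HDAC1 being the exception, and of 37 members at or above 50%, 31 were higher. All 27 lower DEGs had between 33.3% and 47.2% GC, and over all listed genes 1674 of 1741 lower DEGs were below 50% GC. The split by direction was also seen over all listed genes. Of these, 5136 of 5969 below 50% GC were lower and 4180 of 4568 at or above it were higher. Across the 88 members Spearman's rho between the log2 fold change and GC content was 0.82, and with gene length -0.39, against 0.74 and -0.34 over the listed genes, values across genes of the same 6 libraries, which are not independent replicates. The median GC content was alike, 47.2% for the members and 47.3% for all listed genes, but members were longer, with a median gene length of 9862 against 4979 bases. What produced the relation to GC content was not tested.

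**Figure D4:**
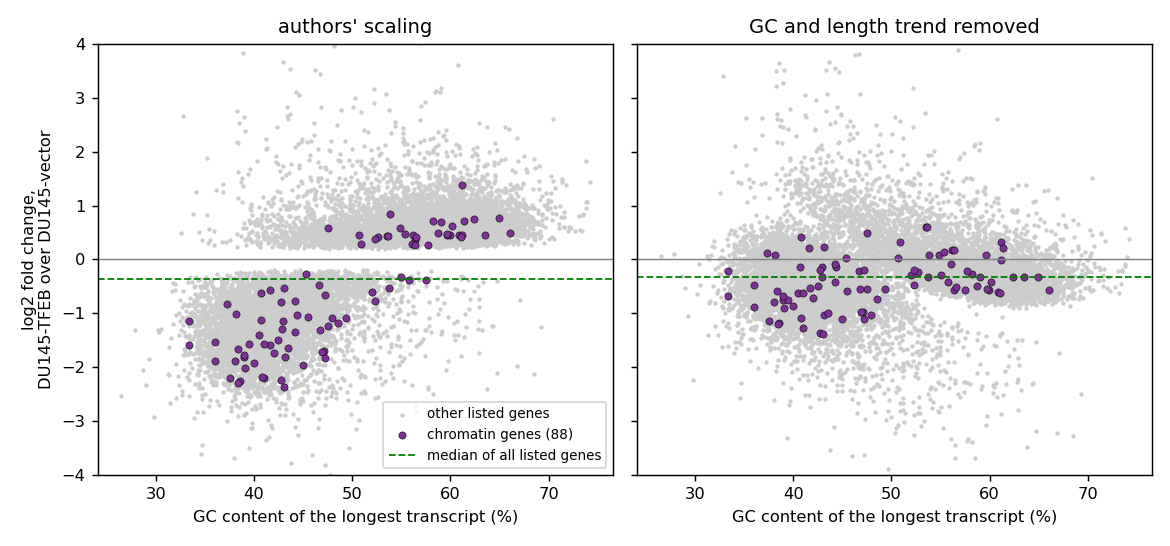
GC content of the longest transcript (horizontal, percent) against the log2 fold change (vertical) of all listed genes (grey) and the 88 chromatin genes (purple), as deposited on the left and after removal of the GC and length trend on the right, with genes beyond 4 in either direction not drawn. On the left, members below 50% GC lie almost all under 0 and the others mostly above it, and on the right the members lie around the median of all listed genes (dashed, -0.32), with their own median at -0.45.

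When the trend of each library with GC content and length was removed by loess, the median of the members was -0.45 and that of all listed genes -0.32. The difference between members and listed genes shrank from -0.41 to -0.12. At an adjusted p-value below 0.05, 59 members (67.0%) were lower, against 54.5% of the listed genes, and 8 (9.09%) higher, against 15.2%. With the fold-change cutoff there was no member in either direction by limma, against 4.04% of the listed genes lower and 1.55% higher. The 27 lower DEGs lay between -1.39 and -0.47, all of them under the median of the listed genes. Of these, 26 had an adjusted p-value below 0.05 (limma), TET1 being the exception. They had been picked as low in the same libraries, so a low position here was partly fixed by that choice and is no separate support. Of the 32 higher members 19 fell below 0, and 21 remained above the median of the listed genes. Of all 56 lower members 6 were above 0, and 39 (69.6%) lay below the median of the listed genes, a share close to the 65.6% of higher members above it. The 8 higher members included HDAC1, HDAC5, DNMT1, DNMT3A, EHMT1, KDM5D and BRD7, the last of which was lower before the trend was removed.

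Libraries of a group differed along the same line. All 27 lower DEGs had their lowest value in DU145-TFEB replicate 2, and 23 of them had their highest in DU145-vector replicate 2. Of the 32 higher members, 21 were highest in DU145-TFEB replicate 2. The share over all listed genes was not counted, so these counts cannot be read as particular to the members. The median of the members below 50% GC minus that of the others, each gene taken from its mean over 6 libraries, was negative in DU145-TFEB (-0.98, -1.21 and -0.65) and positive in DU145-vector (0.87, 1.10 and 0.85). TFEB had 6325, 6301 and 6036 normalized counts in DU145-TFEB replicates 1, 2 and 3, and a relation of its level to this order was not tested. Without DU145-TFEB replicate 2 the number of lower DEGs was 19.

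Other chromatin genes, partners of the members that the naming rule does not reach, moved in both directions too. Of 115 genes in 7 lists 85 were listed, 50 lower and 35 higher, or 58.8% lower against 52.4% of all listed genes. The 18 lower DEGs made up 21.2% of them, near the 16.5% of all listed genes, and no partner was past the cutoff upwards, the highest being at 0.94. The median of the 85 was -0.50, and -0.42 without the trend, where 31 of the 35 higher partners were below 0 and 10 of the 50 lower ones above it. On that scale the median of all listed genes was -0.32, and 52 of the 85 lay below it. Among Polycomb partners the values ran from MTF2 (-2.05), which recruits the repressive complex, to CBX2 (0.94, then -0.09 without the trend), a reader of H3 lysine 27 methylation. PBRM1, which joins ARID2 in PBAF, was at -1.81, and BCL7C was the highest SWI/SNF partner at 0.68 (then -0.39). In the INO80, SRCAP and ISWI list INO80D was at -2.19 and INO80B at 0.93 (then -0.15), the latter on a mean of 47.74 against 23.98 normalized counts. The acetyltransferase list ran from NCOA2 (-1.95) to KAT2A (0.70, then -0.33), and that of deacetylase complexes from TBL1XR1 (-1.62) to GATAD2A (0.87, then 0.03). MEN1, the menin subunit bound to KMT2A and KMT2B, was at 0.59 (then -0.42) and PAXIP1, which joins KMT2C, at -0.91 (then -0.43). JMJD1C (-2.23) and DOT1L (0.80, then 0.16), the H3 lysine 79 methyltransferase, were the extremes of the remaining enzymes.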

How the data were processed

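The authors deposited 1 table with a normalized signal per gene and library, each library's read counts being divided by a single size factor, and also group means and their own log2 fold change, p-value and adjusted p-value. The deposited p-value columns were read only to test which genes are listed: all 10542 have a deposited adjusted p-value below 0.05. Their fold changes and group means were not used. Libraries were made from polyA RNA. The submitters' processing notes name CASAVA 1.8, HISAT2 2.1.0, edgeR and GRCh38. The counting program, annotation and strand are not given in the sources used here. Gene positions equal GENCODE 29 for 10541 genes.

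Groups were taken from the labels. log2(normalized count + 1) of the whole table was tested with limma 3.58.1 (R 4.3.3, mean-variance trend, no block, Benjamini-Hochberg over all listed genes). The cutoffs for DEGs, those of the paper's methods, were 0.05 for the adjusted p-value and 1.5 for the absolute log2 fold change. The filter of a mean of at least 1 removed 0 genes. Reads were recovered by dividing out the size factors (100% whole within 0.001) for edgeR 4.0.16 and DESeq2 1.42.0. GC content came from GENCODE 29 transcripts for 10537 genes, and the trend was removed by loess with a span of 0.5. Scripts were tested on simulated counts. There limma, edgeR and DESeq2 each recovered 200 of 200 changed genes of 10542 with 0 unchanged genes called. These counts check the scripts only, and how calls behave with a GC trend left in is not reported here. Alternatives covered the pseudocount, filters, scalings, tools, the block, the trend, the cutoff and each library left out.

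The members and lists were chosen with earlier results of these data known. Members named are the 8 lowest and 8 highest with a mean of at least 100, the extremes of each role, both genes of listed pairs and those reversed by removing the trend, 63 in all, of which 1 is not reported here. Others (KMT2E, SETD7, NSD1, NSD3, KMT5B, EZH2, KDM3A, KDM5A, TET1, DNMT3A, KDM4C, SETD5, HDAC6, SMARCC1, PHF6, PHF14, ARID5B, KDM5D, SMARCB1, SMARCE1, SMARCA1, SMARCA5, SMARCAD1, BAZ2B and CHD6) were named after their values were seen.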

Additional observations from a re-analysis of the deposited data

How the results depend on the processing

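Across 20 settings the 63 members named by rule kept their direction under every scaling, tool, pseudocount, filter and left-out library, and 25 changed sign when the GC and length trend was removed. That removal left the median of all listed genes at -0.32, not at 0. The number of lower DEGs, 27, was 16 with DESeq2 size factors, 14 after quantile normalization, 15 with DESeq2, 0 without the trend (with or without the block) and 41 at an absolute log2 fold change above 1, and 19 to 28 with 1 library left out. The number of higher DEGs, 0, was 1 (HDAC5) with DESeq2 size factors, upper-quartile scaling, quantile normalization, DESeq2 and the cutoff of 1, and 0 with any library left out. At the adjusted p-value alone 32 higher members became 8 without the trend. With a library left out 31 to 32 were higher and 56 lower. The median of -0.77 was -0.53, -0.59, -0.44, -0.53 and -0.45 with DESeq2 size factors, upper quartile, quantile, DESeq2 and without the trend, and -0.81 to -0.67 with a library left out. Members minus all listed genes, an alternative chosen after seeing the data, gave -0.41, then -0.12 without the trend.

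Without the trend, with or without the block, the reversed values were 0.081 for HDAC2, 0.13 for PHF10, 0.41 for HDAC8, 0.20 for KDM1B, 0.24 for BRD7, 0.034 for SETD3, -0.22 for HDAC7, -0.085 for CHD3, -0.57 for PHF2, -0.19 for BRD3, -0.52 for SIRT7, -0.62 for HDAC11, -0.24 for HDAC3, -0.32 for KMT2B, -0.60 for EHMT2, -0.57 for PHF1, -0.018 for KDM4B, -0.55 for PHF21B, -0.57 for KMT5C, -0.50 for SMARCD2, -0.42 for SIRT2, -0.32 for ARID3A, -0.27 for SIRT3, -0.32 for KDM6B and -0.33 for SIRT6. Pair differences reversed to 1.204 (EHMT1/EHMT2), 0.046 (KDM4A/KDM4B), -0.13 (CREBBP/EP300), -0.23 (ARID1A/ARID1B) and 0.0025 (CHD7/CHD8), and that of KDM4A/KDM4B, close to 0, ran from -0.060 to 0.081 with a library left out. The cause was not tested.

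Same-numbered libraries did not deviate together (correlations -0.059, -0.424 and -0.349), and libraries of different number gave -0.306 to 0.454. With 3 libraries per group these values cannot exclude that the numbers pair the samples. The replicate block left 27 lower DEGs. Each member had at least 16 reads in every library, the fewest in TET1.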
